A study of Mus musculus with 6 samples.

Results

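The 10 genes described here prepare and load the peptides that MHC class I molecules show on the cell surface, and were chosen by name: Tap1, Tap2, Tapbp, Tapbpl, Erap1, Psmb8, Psmb9, Psmb10, Psme1 and Psme2. They are 10 of the 55487 genes in the count table, and all 10 passed the filter on low counts that left 15114 genes to test. RNA was sequenced from 6 subcutaneous tumors grown from CT26.WT, a colon carcinoma line of BALB/c mice, to ask which genes differ after IFN-γ was given to the animal. All tumors carry the same wild-type line and grew in immunocompetent male BALB/c mice that were 4 weeks old when obtained. The 3 tumors of the IFN-γ group came from mice that were injected in the tail vein at 48 h intervals with 100 µL of a 100 ng/ml solution of the cytokine, and the 3 control tumors from mice given PBS by the same route. The libraries were made from whole tumors, so tumor cells and the host's immune and stromal cells were measured together, and a difference in the number of cells of a type cannot be told apart from a difference in RNA per cell.

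Proteasomes cut cytosolic proteins into short peptides. Interferon-γ is known to induce alternative catalytic subunits, which assemble into the immunoproteasome, and the PA28 cap that opens its core. The transporter TAP carries peptides into the endoplasmic reticulum, where peptidases trim them and the peptide-loading complex places them on class I molecules for inspection by CD8+ T cells. These genes are expressed at high levels in immune cells and are induced in many tumor cells by interferon-γ, in part through the transcription factor IRF1 and the transactivator NLRC5.

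The libraries held 15759300 to 17559680 counts per tumor, and 2.25% to 2.61% of the counts were mitochondrial. Every library differed from every other by more than counting noise. Most markers of the labelled colon origin were low in the RNA. Cdx2, a transcription factor of the intestinal epithelium, had 0 counts in all 6 tumors, where 3 counts would be 0.171 to 0.190 CPM (counts scaled to the size of the library). Epcam, an epithelial adhesion molecule, reached at most 0.928 CPM and Krt19 at most 0.400 CPM, whereas Krt18 lay between 6.41 and 10.4 CPM. Cdh1 lay between 1.28 and 2.46 CPM. Krt8 had 12.1 CPM in control 3 and 0.186 to 1.28 CPM in the other tumors. IFN-γ tumor 3 stood apart from IFN-γ tumors 1 and 2 for most of the genes described here, and it also had the lowest summed T cell markers of the 6 tumors (39.5 CPM) and the highest summed keratinocyte markers (68.4 CPM, against 2.75 to 12.3 CPM in the other tumors). Results are given with and without it. The tumor was low for the very genes described, so a fit without it depends on their measured values: its calls show how far the outcome rests on 1 tumor and are not independent support for a difference. The groups also differed in genes of the circadian clock: Dbp had 6.80 to 8.57 CPM in the controls and 131 to 168 CPM in the IFN-γ tumors, and its part in the results was not tested.

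The count table lists the genes by symbol and Ensembl identifier: Tap1 (ENSMUSG00000037321), Tap2 (ENSMUSG00000024339), Tapbp (ENSMUSG00000024308), Tapbpl (ENSMUSG00000038213), Erap1 (ENSMUSG00000021583), Psmb8 (ENSMUSG00000024338), Psmb9 (ENSMUSG00000096727), Psmb10 (ENSMUSG00000031897), Psme1 (ENSMUSG00000022216) and Psme2 (ENSMUSG00000079197). Psmb9, Tap1, Psmb8 and Tap2 lie side by side in the MHC region of mouse chromosome 17 (GRCm38). Psmb9 occupies 17:34181987-34187764 on the minus strand, Tap1 17:34187553-34197225, Psmb8 17:34197721-34201454 and Tap2 17:34203527-34216321, the last 3 on the plus strand, so that the cluster spans 34335 bases. Tapbp (17:33915899-33929292, plus strand) lies in the same region. Psme1 (14:55578123-55581529, plus) and Psme2 (14:55587441-55591113, minus) are neighbours on chromosome 14, with 5911 bases between them. Erap1 (13:74639568-74693201, plus), Psmb10 (8:105935735-105938444, minus) and Tapbpl (6:125223933-125231860, minus) stand alone on chromosomes 13, 8 and 6. Tap1 and Psmb9 are read in opposite directions from a common stretch: their RefSeq start sites are 225 bases apart, their promoter windows share 275 of 300 bases, and their exons overlap over 212 bases. The strand setting of the counting is not known, so reads from those shared bases, 3.87% of all annotated exonic bases of Tap1 and 5.79% of those of Psmb9, could have been counted for either gene. Erap1 likewise shares 834 exonic bases (11.5% of its annotated exonic bases) with Cast on the opposite strand, and Cast had 30052 counts against 14522 for Erap1. Tapbp shares 904 exonic bases (24.9%) with the antisense gene Gm19412, which had 200 counts against 44766. On its own strand Tapbp also shares 149 exonic bases (4.11%) with Zbtb22, which had 4036 counts.

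The sequences around the start sites are shown for reference, and some of the windows hold short motifs read by interferon-activated factors. Any part of these motifs in the levels of the 10 genes was not tested. RefSeq promoter windows (GRCm38.p6, 250 bases before to 50 after the start site) were present for 8 of the 10 genes, with 2 windows for Psme2. Tap2 and Tapbpl were not matched. Each stretch below is written 5′ to 3′ on the gene's own strand, the first transcribed base is position 1, and capitals mark the motif matches named after it. The Tap1 stretch (chr17:34187306-34187575, plus strand) is the sequence between the start sites of Tap1 and Psmb9 and just beyond, with CCAAT and the GC box CCGCCC (the reverse complement of GGGCGG) in capitals. The Erap1 stretch (chr13:74639733-74639881, plus) and the Psme1 stretch (chr14:55578374-55578522, plus) have in capitals the bases covered by matches to either of the overlapping IRF motifs AANNGAAA and GAAANNGAA, which read as TTTC here because they lie on the minus strand. The Psmb8 stretch (chr17:34198045-34198214, plus) has in capitals TTCNNNGAA, the palindrome called GAS, the interferon-γ activated site.
Tap1: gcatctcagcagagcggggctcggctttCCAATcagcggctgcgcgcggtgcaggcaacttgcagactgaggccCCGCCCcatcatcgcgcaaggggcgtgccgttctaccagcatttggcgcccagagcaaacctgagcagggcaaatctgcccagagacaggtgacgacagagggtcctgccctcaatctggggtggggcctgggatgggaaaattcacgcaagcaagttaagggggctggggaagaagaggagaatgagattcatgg
Erap1: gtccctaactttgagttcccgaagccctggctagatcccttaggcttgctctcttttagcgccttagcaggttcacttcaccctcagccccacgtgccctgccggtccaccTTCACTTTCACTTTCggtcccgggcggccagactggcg
Psme1: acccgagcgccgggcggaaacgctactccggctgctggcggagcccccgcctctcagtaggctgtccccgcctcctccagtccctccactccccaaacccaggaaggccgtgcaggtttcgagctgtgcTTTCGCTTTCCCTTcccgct
Psmb8: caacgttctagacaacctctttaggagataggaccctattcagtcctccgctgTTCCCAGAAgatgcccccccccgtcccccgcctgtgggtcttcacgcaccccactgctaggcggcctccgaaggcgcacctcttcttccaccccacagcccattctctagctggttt

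Each motif was searched on both strands of every window. The IRF core AANNGAAA was found in Erap1 and Psme1 and in 23.9% of all 32851 RefSeq windows, and the longer repeat GAAANNGAA, whose matches overlap those of the core, in the same pair of genes and in 8.56% of all windows. The GAS letters were found in Psmb8 alone among the 8 matched genes, at positions -97 to -89, and in 8.30% of all windows. GGGCGG, the GC box, was present in 6 of the 8 genes (Erap1, Psmb9, Psme1, Psme2, Tap1 and Tapbp) and in 35.7% of all windows. CCAAT was present in Psmb9, Tap1 and Tapbp and in 37.4% of all windows. The GC box and CCAAT matches of Tap1 and Psmb9 lie on the same bases of their shared stretch, so each is counted for both genes. The windows of Psmb10 and Psmb8 held neither a GC box nor CCAAT.

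All 10 genes were higher on average in the IFN-γ tumors than in the controls, but with 3 tumors a group none passed the adjusted threshold. In 9 of the 10 the unadjusted p was under 0.05, which 5.74% of all tested genes reached in the higher direction and 4.44% in the lower. IFN-γ tumors 1 and 2 carried the difference: both were above every control for 10 of 10 genes, a pattern seen in 18.1% of all tested genes, whereas IFN-γ tumor 3 lay at 0.938 to 1.2 times the control mean. The fold changes below are log2 values from edgeR's quasi-likelihood test with Benjamini-Hochberg adjustment over all tested genes, positive where the IFN-γ group was higher, and levels are CPM scaled by TMM factors.

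**Figure D1:**
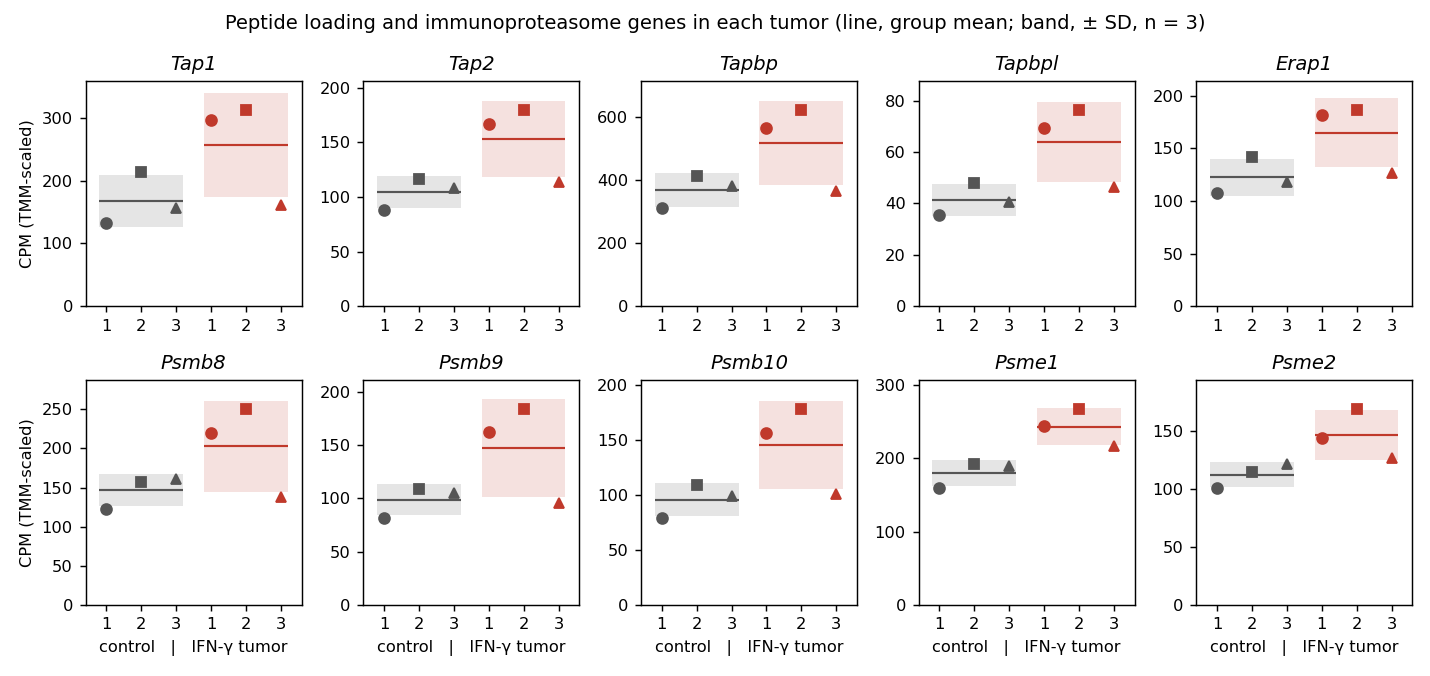
CPM (vertical axis, from 0, scaled to each gene) of the 10 genes in each of the 3 control and 3 IFN-γ tumors, with a point for each tumor, a line for the group mean and a band for ± SD (n = 3). IFN-γ tumors 1 and 2 lie above the 3 controls in every panel, and IFN-γ tumor 3 lies above the 3 controls in those of Psme1 and Psme2.

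The transporter is a pair of half-transporters, TAP1 and TAP2, both needed to move peptides across the membrane. Tap1 was measured at 133, 213 and 156 CPM in control tumors 1 to 3, against 296, 312 and 161 CPM in IFN-γ tumors 1 to 3. Tap2 was measured at 87.9, 116 and 108 CPM in the controls and at 167, 179 and 114 CPM in the IFN-γ tumors. For both genes IFN-γ tumors 1 and 2 were the highest of the 6, and IFN-γ tumor 3 lay among the controls. The group means of Tap1 were 167 ± 41.3 and 256 ± 82.9 CPM (SD, n = 3 each), a log2 fold change of 0.62 (SE 0.26, edgeR adjusted p = 0.465). Tap2 had a log2 fold change of 0.56 (SE 0.17, edgeR adjusted p = 0.352). Both passed when IFN-γ tumor 3 was left out: the log2 fold change of Tap1 was 0.85 (SE 0.17, edgeR adjusted p = 0.036) and that of Tap2 0.72 (SE 0.12, edgeR adjusted p = 0.019). Per kilobase of exonic length, Tap1 exceeded Tap2 by 1.65 to 2.13 times in the 6 tumors, with 1.69 to 2.13 in the controls and 1.65 to 2.07 in the IFN-γ tumors, so the ratio of the pair overlapped between groups.

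Tapasin, the product of Tapbp, tethers class I molecules to TAP and helps select the peptide, and TAPBPR, the product of Tapbpl, is a related peptide editor that works outside the loading complex. Tapbp, by CPM the most abundant of the 10 genes, was measured at 310, 412 and 383 CPM in the controls and at 564, 621 and 366 CPM in the IFN-γ tumors. Tapbpl, the least abundant, was measured at 35.6, 47.9 and 40.7 CPM in the controls and at 69.3, 76.2 and 46.6 CPM in the IFN-γ tumors. In IFN-γ tumor 3 both genes were below control 2. The log2 fold change of Tapbp was 0.49 (SE 0.19, edgeR adjusted p = 0.436) and that of Tapbpl 0.63 (SE 0.18, edgeR adjusted p = 0.329), the highest of the 10. With IFN-γ tumor 3 left out the log2 fold change was 0.68 for Tapbp (SE 0.12, edgeR adjusted p = 0.025) and 0.80 for Tapbpl (SE 0.12, edgeR adjusted p = 0.016).

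Erap1 encodes the aminopeptidase that trims peptides in the endoplasmic reticulum to the length that class I grooves hold. Its levels were 107, 141 and 118 CPM in the controls against 182, 186 and 127 CPM in the IFN-γ tumors. IFN-γ tumors 1 and 2 differed little from each other, and IFN-γ tumor 3 lay between controls 3 and 2. Erap1 had a log2 fold change of 0.43 (SE 0.16, edgeR adjusted p = 0.402), and without IFN-γ tumor 3 this was 0.58 (SE 0.11, edgeR adjusted p = 0.034).

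Psmb8, Psmb9 and Psmb10 encode the catalytic subunits LMP7, LMP2 and MECL-1 of the immunoproteasome. Psmb8 was measured at 123, 157 and 161 CPM in the controls and at 220, 250.5 and 138 CPM in the IFN-γ tumors. Psmb9 was measured at 81.8, 109 and 105 CPM in the controls and at 162, 184 and 95.3 CPM in the IFN-γ tumors. Psmb10 was measured at 79.1, 109 and 98.7 CPM in the controls and at 156, 178 and 100.4 CPM in the IFN-γ tumors. In IFN-γ tumor 3, Psmb8 and Psmb9 were below controls 2 and 3, and Psmb10 was below control 2. The log2 fold changes were 0.46 (SE 0.21) for Psmb8, 0.58 (SE 0.22) for Psmb9 and 0.60 (SE 0.20) for Psmb10, with edgeR adjusted p of 0.494, 0.427 and 0.389. Psmb8 was the only one of the 10 genes whose 95% interval reached below 0 (-0.0066 to 0.94). All 3 passed when IFN-γ tumor 3 was left out, with log2 fold changes of 0.67, 0.80 and 0.80 (edgeR adjusted p = 0.026, 0.017 and 0.021).

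PA28, the cap built from the PSME1 and PSME2 subunits, opens the proteasome core and changes which peptides leave it. Psme1 was measured at 160, 192 and 189 CPM in the controls and at 244, 267 and 217 CPM in the IFN-γ tumors. Psme2 was measured at 100.3, 114 and 121 CPM in the controls and at 143, 169 and 126 CPM in the IFN-γ tumors. These were the only 2 of the 10 genes whose groups did not overlap, IFN-γ tumor 3 included, a pattern that 7.62% of all tested genes showed in the higher direction. Psme1 had a log2 fold change of 0.43 (SE 0.11, edgeR adjusted p = 0.258, the lowest of the 10) and Psme2 of 0.38 (SE 0.12, edgeR adjusted p = 0.352), the smallest change of the 10. In the fit without IFN-γ tumor 3 Psme1 was at 0.50 (SE 0.10, edgeR adjusted p = 0.034), and Psme2, at 0.47 (SE 0.10, edgeR adjusted p = 0.051), was the only one of the 10 that did not pass. The levels per kilobase of Psme1 were 1.36 to 1.5 times those of Psme2 in the 6 tumors.

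Counted over all tested genes, the 6 tumors gave 0 of the 10 past the adjusted threshold, where 0.0794% of the 15114 tested genes passed as higher and 0.0331% as lower. limma-voom also called 0, and DESeq2 called 1 of the 10 (Psme1), against 0.822% of its tested genes called higher. With no filter on low counts edgeR called 3 (Tap2, Tapbpl and Psme1), against 0.558%. Without IFN-γ tumor 3, 9 of the 10 passed as higher and 0 as lower, where 2.46% of 15487 tested genes were called higher and 0.723% lower. Leaving out any other tumor gave 0 of 10. The median log2 fold change of the 10 genes was 0.52, against 0.0015 over all tested genes, and 4.92% of tested genes had a larger value than this median. The median was 0.70 without IFN-γ tumor 3, against -0.016 over all tested genes.

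**Figure D2:**
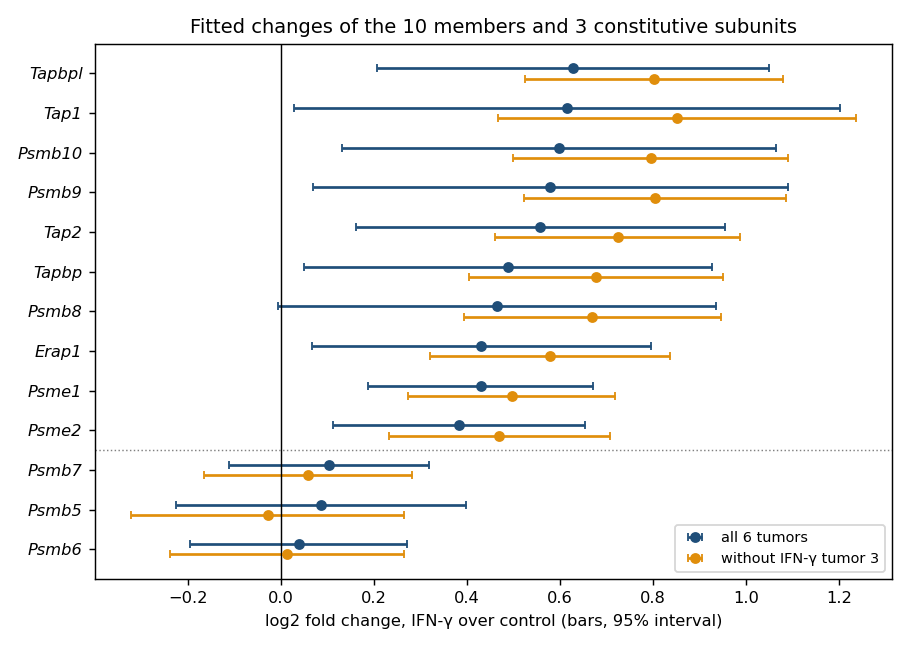
Log2 fold change of IFN-γ against control tumors with 95% intervals for the 10 genes and the constitutive subunits, fitted by edgeR with all 6 tumors and without IFN-γ tumor 3. The 10 genes lie between 0.38 and 0.63 with all tumors and between 0.47 and 0.85 without that tumor, and Psmb5, Psmb6 and Psmb7 lie near 0 in both fits.

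The 10 genes kept nearly the same order of tumors. Control 1 was the lowest tumor for 10 of 10 and IFN-γ tumor 2 the highest for 10 of 10. The share of all tested genes with the same lowest and highest tumor was not counted. The median level relative to the control mean, a mean of log2 CPM, was 0.850, 1.13 and 1.04 in controls 1 to 3. In IFN-γ tumors 1 to 3 it was 1.58, 1.72 and 1.05. IFN-γ tumor 3 was above 1 control for 3 of the genes, above 2 controls for 5, and above all 3 for 2. The highest tumor exceeded the lowest by 1.67 times for Psme1, the smallest spread, and by 2.34 times for Tap1, the largest. Across the 6 tumors, which fall into separate groups and share library scaling, each gene's Pearson correlation with the mean log2 CPM of the other 9 ran from 0.935 (Psme2) to 0.9998 (Psmb10), as a description. Counts per tumor ran from 570 to 10164, and counting error was 4.19% for the lowest of them, smaller than these differences between tumors.

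Levels between genes can be compared only per length, taken here as the exonic bases of basic coding transcripts, which are fewer than all annotated exonic bases. Per kilobase of exonic length the control means ran from 162 ± 15.9 CPM per kilobase for Psme1 to 17.6 ± 2.61 for Tapbpl (SD, n = 3). Tapbp (127 ± 18.2) and Psme2 (115 ± 11) came next to Psme1, and their ranges overlapped in the controls. The catalytic subunits Psmb8 (90.3 ± 12.8), Psmb10 (73.0 ± 11.7) and Psmb9 (72.8 ± 10.8) followed, each with a control range overlapping that of its neighbour. Tap1 (56.7 ± 14.0) overlapped Psmb9 but stood apart from Tap2 (30.2 ± 4.25), and Tap2 stood apart from Erap1 (21.7 ± 3.08), whose range overlapped that of Tapbpl. The levels of Psmb10 and Psmb9 were nearly equal in each tumor: the ratio per length was 0.998, 1.04 and 0.972 in the controls against 0.994, 0.999 and 1.09 in the IFN-γ tumors.

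Each inducible catalytic subunit takes the place of a constitutive one: LMP7 that of PSMB5, LMP2 that of PSMB6 and MECL-1 that of PSMB7. The constitutive genes did not pass the test in either fit. Psmb5 was measured at 41.1, 32.8 and 37.5 CPM in the controls and at 32.6, 40.7 and 45.0 CPM in the IFN-γ tumors. Psmb6 was measured at 135, 105 and 119 CPM in the controls and at 114, 128 and 126 CPM in the IFN-γ tumors. Psmb7 was measured at 171, 142 and 173 CPM in the controls and at 166, 174 and 183 CPM in the IFN-γ tumors. The groups overlapped for Psmb5 and Psmb6, and for Psmb7 IFN-γ tumor 1 was below 2 controls. Their log2 fold changes were 0.09, 0.04 and 0.10 (edgeR adjusted p = 0.875, 0.935 and 0.776), with 95% intervals from -0.22 to 0.40, from -0.19 to 0.27 and from -0.11 to 0.32.

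The ratio of each inducible to its constitutive subunit, taken within each tumor, does not depend on library scaling. The CPM ratio of Psmb8 to Psmb5 was 2.97, 4.73 and 4.25 in the controls against 6.68, 6.09 and 3.04 in the IFN-γ tumors. The ratio of Psmb9 to Psmb6 was 0.608, 1.04 and 0.879 in the controls against 1.42, 1.43 and 0.759 in the IFN-γ tumors. The ratio of Psmb10 to Psmb7 was 0.464, 0.771 and 0.571 in the controls against 0.943, 1.03 and 0.551 in the IFN-γ tumors. In all 3 pairs IFN-γ tumors 1 and 2 had a higher ratio than every control, and IFN-γ tumor 3 lay within the controls' range. The mean log2 ratio of Psmb8 to Psmb5 was 1.97 ± 0.35 in the controls and 2.32 ± 0.62 in the IFN-γ tumors (SD, n = 3 each). The IFN-γ mean exceeded the control mean by 0.35, 0.49 and 0.46 on the log2 scale, with two-sided exact permutation p of 0.4, 0.3 and 0.3 and an adjusted p of 0.4 for each over the 3 pairs. With 3 tumors against 3 this exact test cannot go below p = 0.1. The differences without IFN-γ tumor 3 were 0.71, 0.79 and 0.74, each with an exact permutation p of 0.2, the smallest that 3 tumors against 2 allow. Per length, the control ratio was 2.20 ± 0.50 for Psmb8 to Psmb5, 0.497 ± 0.129 for Psmb9 to Psmb6 and 0.533 ± 0.138 for Psmb10 to Psmb7 (SD, n = 3).

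**Figure D3:**
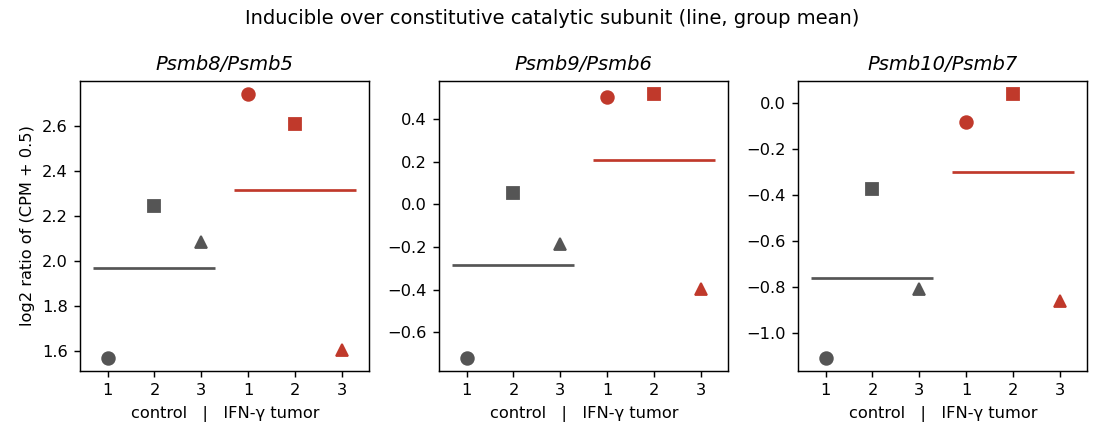
Within-tumor log2 ratio of each inducible catalytic subunit to the constitutive subunit it replaces (Psmb8 to Psmb5, Psmb9 to Psmb6, Psmb10 to Psmb7), on CPM plus 0.5, with a point for each of the 3 control and 3 IFN-γ tumors and a line for the group mean. IFN-γ tumors 1 and 2 lie above the controls in each pair and IFN-γ tumor 3 lies within the controls' range.

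Around these genes, 72 others of the pathway were tested in 8 lists. With 6 tumors 0 passed the edgeR test in either direction. At an unadjusted p under 0.05 there were 14 in the higher direction and 0 in the lower, against 5.74% and 4.44% of all tested genes. DESeq2 called 5 of them as higher, against 0.822% of its tested genes. Without IFN-γ tumor 3, 10 passed as higher and 0 as lower, against 2.46% and 0.723% of all tested genes. The 11 other subunits of the proteasome's 20S core had a median log2 fold change of 0.15, from 0.043 for Psmb2 to 0.25 for Psmb1, and the 18 subunits of the 19S regulatory particle had a median of 0.017, from -0.076 for Psmd2 to 0.093 for Psmc3. The 8 other activators, inhibitors and assembly factors had a median of -0.0026, from -0.20 for Psmg3 to 0.28 for Psmg4. The 5 chaperones of class I folding had a median of 0.0092, from -0.041 for Canx to 0.11 for Pdia3, and none of these 4 lists had a gene past the threshold in either edgeR fit. Of 8 cytosolic and endosomal peptidases, with a median of 0.038 and the lowest value for Nrd1 (-0.098), Lap3 passed without IFN-γ tumor 3. Lap3, leucine aminopeptidase, was measured at 163, 176 and 183 CPM in the controls and at 218, 233 and 206 CPM in the IFN-γ tumors. It had no overlap between groups, as was seen in 7.62% of all tested genes in the higher direction. Its log2 fold change was 0.33 (edgeR adjusted p = 0.256), and 0.37 (edgeR adjusted p = 0.049) without that tumor.

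The 10 MHC class I chains had a median log2 fold change of 0.34, beside 0.52 for the loading and immunoproteasome genes. Of the chains 7 had an unadjusted p under 0.05 in the higher direction, against 5.74% of all tested genes. The adjusted threshold was passed by 0. Without IFN-γ tumor 3 the median was 0.49, against -0.016 over all tested genes. In that fit 7 passed as higher, against 2.46% of all tested genes: H2-K1, H2-D1, B2m, H2-Q4, H2-T22, H2-T23 and H2-T24. B2m, the light chain shared by all class I molecules, was measured at 2035, 2218 and 2379 CPM in the controls and at 2996, 3330 and 2711 CPM in the IFN-γ tumors. H2-D1 was measured at 1453, 1553 and 1659 CPM in the controls and at 1967, 2150 and 1732 CPM in the IFN-γ tumors. H2-K1, like H2-D1 a classical heavy chain, had 153, 155 and 139 CPM in the controls against 208, 206 and 154 CPM in the IFN-γ tumors. For B2m and H2-D1 the groups did not overlap, as in 7.62% of all tested genes in the higher direction. For H2-K1 IFN-γ tumor 3 lay among the controls. The log2 fold changes of B2m, H2-D1 and H2-K1 were 0.45, 0.33 and 0.35 (edgeR adjusted p = 0.222, 0.349 and 0.389). H2-T23 had the highest value of the list, 0.65, and H2-Q7 the lowest, -0.12. H2-Q7 had 0.226 CPM in control 2 and 0.672 CPM in IFN-γ tumor 2 against 20.1 to 26.7 CPM in the other 4 tumors. Class I heavy chains are near-identical copies between which reads can be split or lost, and the mm10 reference is of the C57BL/6 strain, whose class I alleles differ from those of BALB/c, so values of single heavy chains are uncertain.

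The 9 genes of IFN-γ signalling and class I regulation had a median log2 fold change of 0.20, the lowest being Irf2 (0.061). Of these 9 genes 4 had an unadjusted p under 0.05 in the higher direction, against 5.74% of all tested genes. Irf1, an interferon-induced factor that binds class I pathway promoters, was measured at 140.4, 211 and 162 CPM in the controls and at 308, 290.0 and 177 CPM in the IFN-γ tumors. Nlrc5, the class I transactivator, was measured at 101, 156 and 102 CPM in the controls and at 177, 169 and 92.1 CPM in the IFN-γ tumors. In both genes IFN-γ tumors 1 and 2 were above every control and IFN-γ tumor 3 was not. In 3 genes of this list, Socs1, Ifngr2 and Jak2, named after their values were seen, all 3 IFN-γ tumors were above every control. This pattern was found in 7.62% of all tested genes. Socs1, a feedback inhibitor of cytokine signalling, had 17.8, 17.1 and 17.3 CPM in the controls against 25.3, 23.5 and 27.1 CPM in the IFN-γ tumors, so that IFN-γ tumor 3 was its highest. Its log2 fold change was 0.54 (edgeR adjusted p = 0.141), and 0.48 (edgeR adjusted p = 0.053) without IFN-γ tumor 3. The log2 fold changes of Irf1 and Nlrc5 were 0.60 and 0.29 (edgeR adjusted p = 0.401 and 0.770). With that tumor left out Irf1 was at 0.80 (edgeR adjusted p = 0.030), while Nlrc5, at 0.52, did not pass (edgeR adjusted p = 0.178).

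Of 10081 genes with a mean of at least 10 CPM, the 5 whose log2 CPM over the 6 tumors was most like the mean of the 10 genes were Efhd2, Calhm6, Gpr65, Ifit3b and Hcls1, with Pearson r of 0.999, 0.998, 0.996, 0.996 and 0.995. Efhd2 was measured at 146, 175 and 164 CPM in the controls and at 217, 226 and 170 CPM in the IFN-γ tumors. Calhm6 was measured at 5.38, 10.7 and 8.63 CPM in the controls and at 22.3, 27.7 and 8.22 CPM in the IFN-γ tumors. In Calhm6 IFN-γ tumor 3 was below controls 2 and 3, and in Efhd2 it was below control 2. Gpr65, an acid-sensing receptor of leukocytes, was measured at 19.3, 29 and 23.8 CPM in the controls and at 42.1, 50.3 and 26.3 CPM in the IFN-γ tumors. Hcls1, a cytoskeletal protein of blood cells, was measured at 69.2, 90.2 and 80.6 CPM in the controls and at 118, 124 and 79.5 CPM in the IFN-γ tumors. Ifit3b, an interferon-induced gene with close copies that can share its reads, had 12.3 to 16.9 CPM in the controls and 23.7, 27.5 and 14.9 CPM in the IFN-γ tumors. All 5 had control 1 as the lowest tumor and IFN-γ tumor 2 as the highest. They were picked for likeness to the 10 genes over these 6 tumors, so this order is not a separate observation. By the same measure r was 0.971 for Irf1, 0.836 for Nlrc5, 0.941 for H2-D1, 0.906 for B2m and 0.905 for H2-K1, and -0.307, -0.205 and -0.022 for Psmb5, Psmb6 and Psmb7. Among the 10081 genes Irf1, Nlrc5, H2-D1, B2m and H2-K1 ranked 113, 730, 269, 427 and 431, so many genes were more alike. These 6 points share library scaling and the grouping of the tumors, and no p is attached to them.

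Summed markers of leukocytes, T cells, macrophages, NK cells and dendritic cells were highest in IFN-γ tumors 1 and 2, as the 10 genes were, and those of B cells were not. The 5 leukocyte markers summed to 483, 586 and 598 CPM in the controls and to 841, 869 and 481 CPM in the IFN-γ tumors, and 5 of 5 had a higher mean in the IFN-γ group. The 8 T cell markers summed to 47.3, 72.1 and 66.7 CPM in the controls and to 98.6, 115 and 39.5 CPM in the IFN-γ tumors, and 8 of 8 had a higher mean. The 6 macrophage markers summed to 1683, 1832 and 1779 CPM in the controls and to 2328, 2523 and 1746 CPM in the IFN-γ tumors, and 5 of 6 had a higher mean. The exception was Mrc1, the mannose receptor, with 433, 391 and 407 CPM in the controls against 368, 369 and 322 CPM in the IFN-γ tumors (log2 fold change -0.22, edgeR adjusted p = 0.437). All 3 sums were highest in IFN-γ tumors 1 and 2, and no marker of these lists was at 0 in every tumor. With 6 tumors 0 of the 19 markers passed the edgeR test, and 6 had an unadjusted p under 0.05 in either direction, Mrc1 among them. Of all tested genes 5.74% reached this as higher and 4.44% as lower. limma-voom called 0 of the markers and DESeq2 2, where DESeq2 called 0.822% of its tested genes higher. Without IFN-γ tumor 3, 4 leukocyte markers (Coro1a, Cd53, Laptm5 and Cd52) and 4 macrophage markers (Adgre1, Cd68, C1qa and C1qb) passed as higher, against 2.46% of all tested genes. In that fit 0 T cell markers passed, and 6 of them had an unadjusted p under 0.05. The share of all tested genes at that unadjusted level in this fit is not given here. For levels relative to the control mean, that mean was taken on log2 CPM for the 10 genes and on summed CPM for the markers. Relative to it, the 10 genes were at 1.58 and 1.72 in IFN-γ tumors 1 and 2, and the leukocyte sum at 1.51 and 1.56. In those tumors the T cell sum was at 1.59 and 1.86, and the macrophage sum at 1.32 and 1.43. In IFN-γ tumor 3 the 10 genes were at 1.05, the leukocyte sum at 0.866, the T cell sum at 0.637 and the macrophage sum at 0.989. The sums of NK cell and dendritic cell markers were at 1.77 and 1.5 in IFN-γ tumor 1, at 1.95 and 1.54 in IFN-γ tumor 2, and at 0.568 and 0.936 in IFN-γ tumor 3. Of the NK cell markers 3 of 4 had a higher mean in the IFN-γ group, the exception being Klrb1c. Of the dendritic cell markers 3 of 5 did, the exceptions being Zbtb46 and Cd209a. The B cell sum was at 0.876, 0.905 and 0.857 in IFN-γ tumors 1 to 3, with 1 of 4 markers at a higher mean, and the neutrophil sum at 1.41, 1.5 and 1.17. Of the neutrophil markers 3 of 4 had a higher mean, the exception being S100a9. Adipocyte markers had another pattern, with 2.77, 5.87 and 4.66 in IFN-γ tumors 1 to 3. The endothelial sum was at 0.913, 0.781 and 0.678 in IFN-γ tumors 1 to 3. The part of immune cell number in the levels of the 10 genes was not tested.

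**Figure D4:**
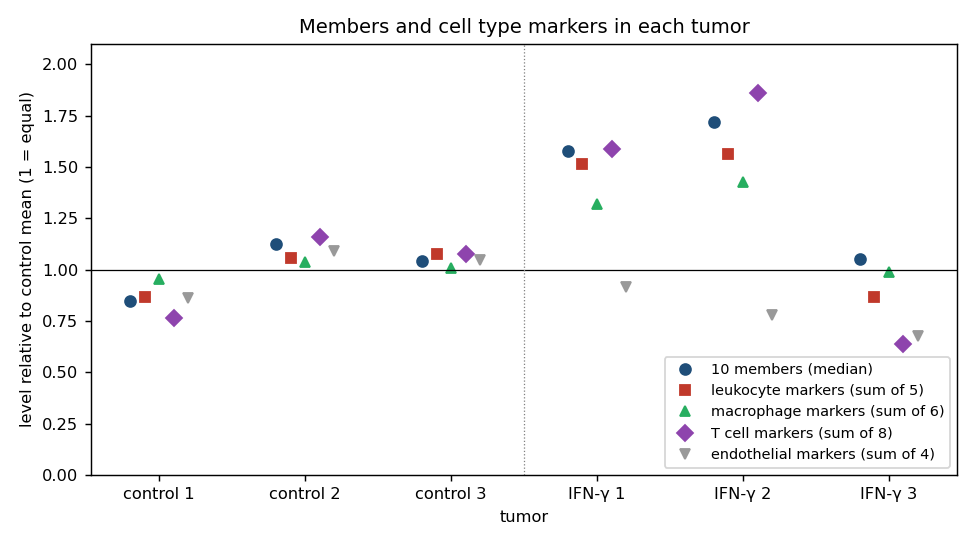
Level relative to the control mean (1 means equal) in each of the 6 tumors for the median of the 10 genes and for the summed leukocyte, macrophage, T cell and endothelial markers. The control mean was taken on log2 CPM for the 10 genes and on summed CPM for the markers. IFN-γ tumors 1 and 2 are at 1.58 and 1.72 for the 10 genes and at 1.51 and 1.56 for the leukocyte sum, and IFN-γ tumor 3 is at 1.05 and 0.866.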

How the data were processed

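RNA-seq was performed on 6 CT26.WT tumors, 3 control and 3 IFN-γ, grouped by the treatment given in the labels. The values deposited by the authors are raw read counts for each gene, as whole numbers. HISAT2 and the mouse build mm10 are named in the submitters' processing notes, and the counting program and its strand setting are not given in the sources used here. The study's own RNA-seq comparisons used fewer IFN-γ tumors than are analysed here, and its comparison of single genes also used fewer controls. Which tumors were used is not named.

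Genes were tested with edgeR 4.0.16 (R 4.3.3) by its quasi-likelihood test after TMM scaling and filterByExpr, and p-values were adjusted by Benjamini-Hochberg with a threshold of 0.05. A standard error is the log2 fold change over the root of the F statistic. DESeq2 1.42.0, limma 3.58.1 (voom), other scalings and filters, the replicate number as a block, and leaving out each tumor in turn were alternatives. Subunit ratios used log2 of CPM plus 0.5 and an exact permutation test (SciPy 1.17.1). The methods describe 1 injection site per mouse, but which mouse gave each library is not stated, and p-values measure the spread between these libraries. Same-numbered tumors did not deviate together (r of -0.24, -0.0047 and -0.22), and replicate numbers were therefore not used as pairs. Libraries held 15759300 to 17559680 counts.

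Gene positions are from GENCODE M21, which held 99.4% of the identifiers, and promoters from RefSeq. Named genes were the 10 members, Psmb5, Psmb6, Psmb7, H2-K1, H2-D1, B2m, Irf1, Nlrc5, the highest and lowest gene of each other list, and the 5 genes most like the members. The values of 1 gene that this rule names are not reported here. Genes named from counts or marker lists, the clock gene, Socs1 and Lap3's values in each tumor were picked after their values were seen. Members and lists were chosen with earlier results of these data known. On simulated counts the edgeR step was tested with 200 genes changed by known folds.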

Additional observations from a re-analysis of the deposited data

How the results depend on the processing

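All values for the 10 genes kept a positive direction under every alternative run. Genes called higher numbered 12 with 6 tumors, 7 with library size alone, 118 with DESeq2, 150 without the low-count filter, and 4 to 381 when 1 tumor was left out. Genes called lower numbered 5, against 73 with DESeq2, 3 with limma-voom, 70 with no filter, and 2 to 112 when 1 tumor was left out. Of the 10 members 0 were called with 6 tumors, 1 with DESeq2, 3 with no filter, and 0 to 9 when 1 tumor was left out, the 9 being without IFN-γ tumor 3. Of the 72 pathway genes 0 were called with 6 tumors, 5 with DESeq2, 4 with no filter, and 0 to 10 when 1 tumor was left out, the 10 again without IFN-γ tumor 3. The median log2 fold change of the members was 0.37 to 0.70 when 1 tumor was left out. With the replicate number as a block, 5 genes were called higher and 2 lower, and 0 members were called, but the tumors share only a number and the pairing has no other basis. The exact test of the subunit ratios could not pass the threshold under any alternative, with a smallest p of 0.1 for 3 tumors against 3 and 0.2 for 3 against 2. When 1 tumor was left out the differences in log2 ratio ran from 0.14 to 0.71 for Psmb8 to Psmb5, from 0.27 to 0.79 for Psmb9 to Psmb6, and from 0.29 to 0.74 for Psmb10 to Psmb7.

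Over 37 named genes and 481 comparisons, 440 kept direction and side of the threshold, 30 passed it only under the alternative, and 11 changed sign, all in genes that were not called. When 1 tumor was left out, Psmb5 ran from -0.028 (without IFN-γ tumor 3) to 0.21, Psmb6 from -0.048 (without control 2) to 0.13, Psmb2 from -0.0096 (without IFN-γ tumor 2, and -0.0094 without control 2) to 0.087, and Irf2 from -0.024 (without control 1, and -0.0087 without IFN-γ tumor 2) to 0.16. H2-Q7 was at 0.48 with limma-voom and 0.015 with the replicate block, and ran from -0.70 to 0.45, above 0 without control 1, control 3 or IFN-γ tumor 2. The cause of these shifts was not tested. The lowest count of a member in a tumor was 570.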
